A study of Mus musculus with 16 samples.

Results

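Choroid plexus epithelial cells were recovered as 2400 nuclei in 13 of the 16 hippocampal libraries, among 119988 nuclei of those 13 libraries that passed the filters on depth and mitochondrial transcripts. The nuclei were chosen by measured values: at least 3 UMIs (unique molecular identifiers, 1 per captured transcript) summed over Otx2os1, Tmem72, Col9a3, Clic6 and Rbm47, at least 1 UMI of Htr2c, at most 1 UMI summed over the neuronal genes Slc17a7, Gad1 and Gad2, and at most 1 over the myelin genes Mog and Mag. Over all 16 libraries the same rule found 2420 of 147873 nuclei (1.64%). The remaining 3 libraries held 4, 8 and 8 such nuclei, under the minimum of 20, and entered only the shares of nuclei and the Ttr background.

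The series profiled nuclear RNA of the hippocampus of female mice aged 9 months with droplet 3' sequencing, in 4 libraries per group. The groups cross the Ch25h genotype, +/+ or -/-, with a tau state, Tau+ or Tau-, and a group is written below as, for example, Ch25h-/- Tau+. Ch25h encodes cholesterol 25-hydroxylase, an interferon-induced enzyme that makes 25-hydroxycholesterol, and the title of the series places it between STING and interferon signalling and tau pathology. The tau allele and its promoter, the strain and the construction of the Ch25h allele are not given in the sources used here. Of the 13 libraries, 4 were Ch25h+/+ Tau+ and 3 belonged to each other group. Replicate numbers follow accession order and pair no libraries. The labels do not say whether each library is 1 mouse, so p-values measure the spread between these libraries.

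The choroid plexus is a fringe of epithelium over vascular stroma that projects into the brain ventricles, and in the lateral ventricle it borders the hippocampus. Its epithelial cells secrete cerebrospinal fluid by moving sodium, chloride, bicarbonate and water across the cell, form the barrier between blood and fluid with tight junctions, and release carrier proteins and growth factors, among them transthyretin (Ttr). Ependymal cells, which line the ventricles, arise from the same neuroepithelium and move the fluid with motile cilia.

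The selected nuclei carried the transcripts of choroid plexus epithelium. All 22 marker genes listed for this cell type had a higher mean level there than in the other nuclei of the same libraries, in counts per 1000000 UMIs summed over the nuclei of a library (CPM). Of the 22, the rule itself used 4 (Htr2c, Otx2os1, Tmem72 and Clic6). Ttr, which the rule did not use, had a mean of 10778 CPM ± 3759 (SD, n = 13 libraries) against 88.4 CPM in the other nuclei, and 2356 of the 2400 nuclei (98.2%) held at least 1 Ttr UMI. The transcription factor Otx2, which specifies this epithelium, had 403 CPM ± 42.6 against 1.38 CPM. The bicarbonate transporter Slc4a5 had 383 CPM ± 65.4 against 1.08 CPM, and the tight junction protein Cldn2 had 110.3 CPM ± 22.4 against 0.287 CPM. The folate receptor Folr1 had 268 CPM ± 65 against 1.27 CPM. Kl, the coreceptor klotho, had 516 CPM ± 78.7 against 6.95 CPM, and the water channel Aqp1 had 20.4 CPM ± 9.74 against 0.333 CPM. These levels describe the selection and carry no test, since the nuclei were chosen on their transcripts. A nucleus held a median of 4264.5 UMIs and 2349.5 genes, with 31 UMIs of the 5 positive markers, 48 of Htr2c and 39 of Ttr.

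**Figure D1:**
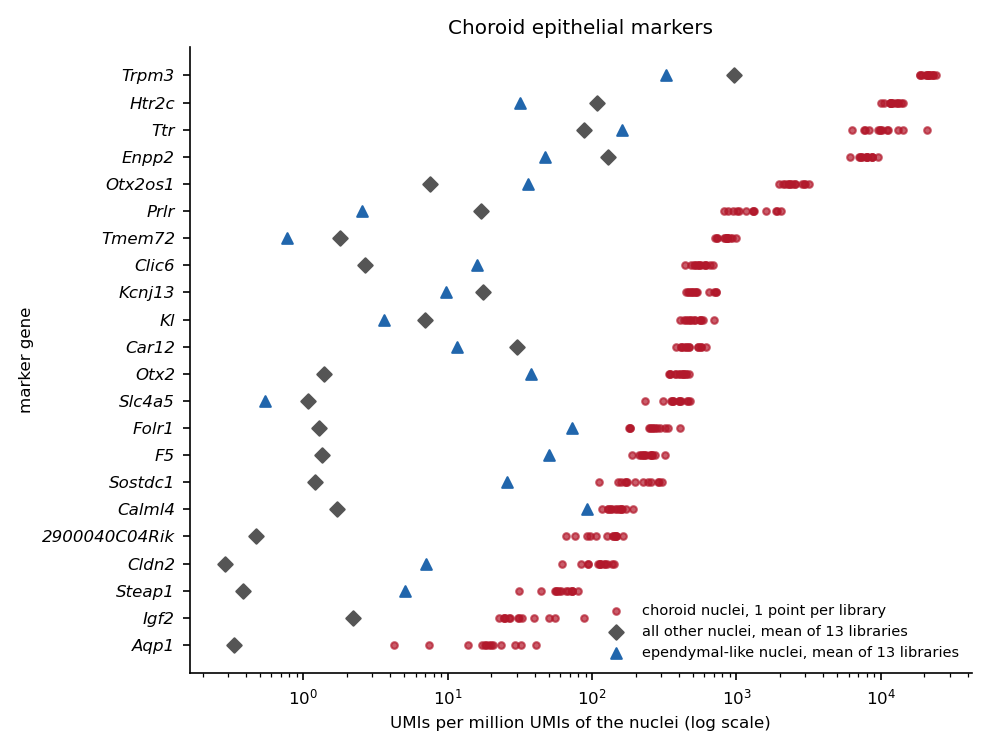
Level of each listed choroid marker (CPM, log axis), with 1 red point per library for choroid nuclei (13 libraries), a grey diamond for the mean of all other nuclei and a blue triangle for the mean of ependymal-like nuclei. The red points lie to the right of the diamond for each of the 22 genes. No triangle is drawn where the ependymal-like mean is 0.

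The threshold passed through few nuclei. Over all libraries 42 nuclei had exactly 3 marker UMIs, and 78 had exactly 2 and met every other condition. A further 645 nuclei had 3 or more marker UMIs but no Htr2c, and 547 had the markers and Htr2c but more neuronal or myelin UMIs than allowed. Nuclei close to the threshold often lacked Ttr: of the 53 nuclei with 3 or 4 marker UMIs in the 13 libraries, 28 held none, against 16 of the 2347 nuclei with 5 or more. Their median depth was 5606 UMIs against 4259, and 15 of the 53 came from Ch25h+/+ Tau+ replicate 4. In Ch25h-/- Tau+ replicate 4, 1 of the 3 libraries not used, 7 of the 8 selected nuclei held no Ttr and 1 had 5 or more marker UMIs.

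Of 10 marker lists for other cell types, 5 had a lower median sum over the libraries in choroid nuclei than in the other nuclei and 5 a higher one. The lower sums were 888 against 7231 CPM for excitatory neurons, 201 against 1026 CPM for astrocytes, 172 against 1172 CPM for oligodendrocytes, 96.1 against 277 CPM for their precursors and 64.8 against 76.6 CPM for fibroblasts. The rule itself limited Slc17a7 of the excitatory list and Mog and Mag of the oligodendrocyte list, so those 2 lower sums are partly fixed by the selection. It also limited Gad1 and Gad2 of the inhibitory list. The higher sums were 1657 against 1031 CPM for inhibitory neurons, 716 against 303 CPM for ependymal cells, 331 against 236 CPM for microglia and macrophages, 57 against 21.8 CPM for mural cells and 532 against 51 CPM for endothelial cells. Single genes made up much of several higher sums. Most of the endothelial sum was Mecom, a zinc finger transcription factor, at 531 CPM ± 127, while the defining endothelial genes Cldn5 and Cdh5 had 3 UMIs and 1 UMI in all 13 libraries together. Cx3cr1, the fractalkine receptor of microglia, had 223 CPM against 26.1 CPM in the other nuclei, while the microglial gene P2ry12 had 40.8 against 86.4 CPM and the macrophage gene Mrc1 had 6 UMIs in all. Erbb4, a neuregulin receptor listed for inhibitory neurons, had 1526 against 834 CPM. Notch3, listed for mural cells, had 52 against 7.97 CPM, with 1 UMI of Rgs5 and 0 of Kcnj8. Doublet scores marked 211 of the choroid nuclei (8.79%), against 7.47% of all nuclei.

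Of 10 hindbrain Hox genes listed, which are expressed in the choroid plexus of the fourth ventricle, 9 had no UMI in the 2400 nuclei and Hoxb3 had 1. The forebrain homeobox genes Otx1 and Emx2 had 19.9 CPM ± 4.73 and 10.5 CPM ± 4.42, against 1.62 and 4.65 CPM in the other nuclei. Lhx2, which patterns the telencephalic cortex, had 3.2 CPM, below the 20 CPM of the other nuclei. The 4 genes listed for the telencephalon summed to a median of 35.5 CPM per library in choroid nuclei, below the 54.6 CPM of the other nuclei.

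The share of choroid nuclei differed widely between libraries. It was 3.15%, 2.53%, 3.29% and 2.14% of all nuclei in the 4 Ch25h+/+ Tau+ libraries and 1.78%, 2.3%, 1.57% and 0.0435% in Ch25h+/+ Tau-. It was 1.96%, 1.17%, 0.823% and 0.0954% in Ch25h-/- Tau+ and 2.61%, 0.0776%, 0.756% and 1.66% in Ch25h-/- Tau-. Each group other than Ch25h+/+ Tau+ had 1 library with almost no choroid nuclei. The share was 1.77 percentage points lower in Ch25h-/- Tau+ than in Ch25h+/+ Tau+, and the groups of 4 did not overlap (two-sided exact permutation test, p = 0.0286, the smallest that 70 arrangements allow). Adjusted over the 6 effects compared, the exact permutation p was 0.138. Averaged over tau states the Ch25h-/- share was 0.957 points lower (exact permutation p = 0.0690, adjusted 0.138), and averaged over genotypes the Tau+ share was 0.546 points higher (exact permutation p = 0.271, adjusted 0.407). None of the 6 effects passed the correction. Without the 3 sparse libraries, an alternative chosen after seeing the data, the first difference was 1.46 points (adjusted exact permutation p = 0.176).

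**Figure D2:**
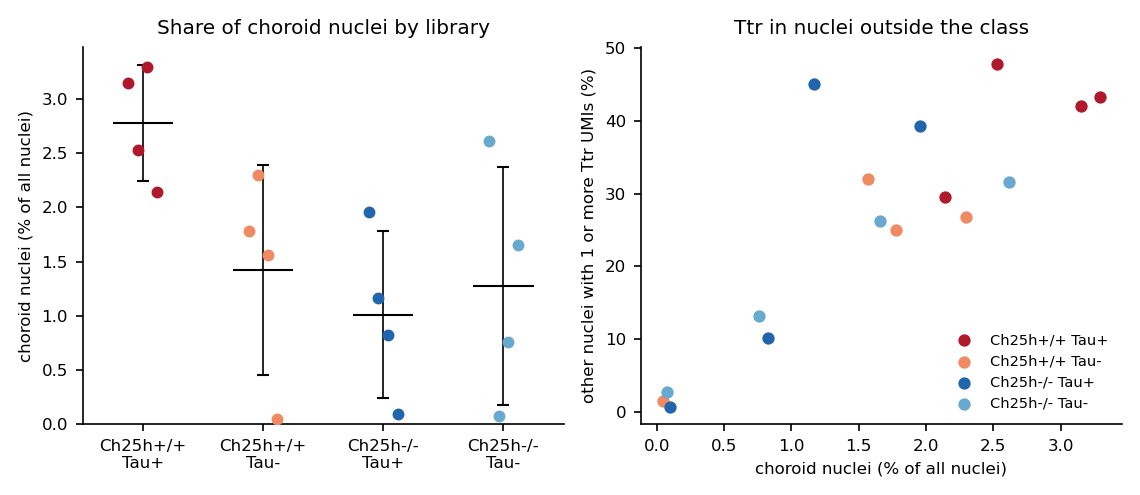
Left, choroid nuclei as a percentage of all nuclei, 1 point per library (n = 4 per group), with the mean and SD as bars. Right, the percentage of nuclei outside the class with 1 or more Ttr UMIs (vertical) against that share (horizontal), 1 point per library. The 3 libraries with the fewest choroid nuclei sit at the lower left, with Ttr in 0.632% to 2.63% of their other nuclei.

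Ttr was also counted in nuclei outside the class, at a rate that differed between libraries. The share of other nuclei with a Ttr UMI ranged from 0.632% to 47.8%, and in astrocyte-like nuclei from 1.02% to 48.7%. It was 1.5%, 0.632% and 2.63% in the 3 libraries with the fewest choroid nuclei and 10.1% to 47.8% in the other 13. Barcodes with under 100 UMIs, which mostly hold free RNA, divided in the same way, with 86.8, 21 and 138 CPM of Ttr in the 3 sparse libraries and 696 to 4084 CPM in the others. Over the 16 libraries the Ttr level of these near-empty barcodes correlated with the choroid share (Pearson r = 0.70, permutation p = 0.0025, Spearman rho = 0.61, permutation p = 0.014). Without the 2 libraries farthest from the median share r was 0.57 (permutation p = 0.035) and rho 0.43 (permutation p = 0.12). Within the 13 libraries with enough choroid nuclei, which span a narrower range of shares, r was 0.39 (permutation p = 0.19). It was r = 0.43 (exact permutation p = 0.28) in the 8 libraries numbered 1 and 2 and r = 0.89 (exact permutation p = 0.0028) in the 8 numbered 3 and 4. The sparse libraries were split unevenly, with those numbered 4 in the second set and the one numbered 2 in the first. In a fixed band of ranks below the nuclei, barcodes had medians of 89 to 136 UMIs in the first set and 66 to 82 in the second. The limit of 100 UMIs thus fell differently on the 2 sets, and its part was not tested.

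Many genes of choroid function had a similar level in every library. Of 86 listed genes with a mean of 20 or more UMIs per library, 52 had a highest library less than 2 times the lowest, 31 ranged from 2 to 5 times and 3 more than 5 times. Of the 52, 4 (Htr2c, Tmem72, Clic6 and Otx2os1) were used to choose the nuclei. The median coefficient of variation over all 86 genes was 17.7%. The cation channel Trpm3 ran from 18628 to 24271 CPM, Enpp2 (autotaxin, which makes lysophosphatidic acid) from 6103 to 9628 CPM, and the bicarbonate transporter Slc4a10 from 2105 to 2740.2 CPM. The prolactin receptor Prlr varied more, from 826 to 2029.9 CPM. Ttr ran from 6359 CPM in Ch25h+/+ Tau- replicate 2 to 20914 CPM in Ch25h-/- Tau+ replicate 2.

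Slc16a8 and Slc7a10 were among the 3 genes with the widest ranges. Ch25h+/+ Tau- replicate 3 was the lowest library for several transporters. The lactate transporter Slc16a8 had 25.7 CPM there and 34.5 to 218 CPM in the others, and the amino acid transporter Slc7a10 had 39.4 CPM there and 164 to 306 CPM in the others. Slc6a20a, a proline transporter, had 144 CPM there and 299 to 628 CPM elsewhere. The growth factor Vegfa was also lowest in that library (37.6 CPM, others 69 to 171), and the tight junction gene Cldn1 was highest there (68.4 CPM, others 17.8 to 56.7). Its 150 choroid nuclei had a median of 3317.5 UMIs. Slc16a8 was nearly as low in Ch25h-/- Tau+ replicate 3, at 34.5 CPM.

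The level of motile cilium genes in choroid nuclei ran from far above that of the other nuclei to at or near background. For comparison 585 ependymal-like nuclei were taken from the 13 libraries, by a threshold chosen after seeing the data. It was 10 or more UMIs summed over Cfap299, Dnah12, Tmem212, Ccdc153, Cfap54 and Hydin. These 6 are among the cilium genes compared below, so their ependymal-like levels are raised by the selection. Of 31 cilium genes, 16 had a choroid level over 20% of the ependymal-like level, 8 had 5% to 20% and 7 had under 5%. Spag16, a protein of the axonemal central pair, had 1356 CPM ± 166 in choroid nuclei and 2233 CPM ± 543 in ependymal-like nuclei. The inner arm dynein Dnah6 had 435 CPM ± 68 in choroid nuclei and 1009 CPM ± 272 in ependymal-like nuclei. At the other end Dnah12, also an axonemal dynein, had 5.66 CPM ± 2.8 in choroid nuclei and 2071 CPM ± 537 in ependymal-like nuclei. Tmem212 had 0.811 against 1166 CPM, Spag17 4.68 against 974 CPM and Ccdc153 0.136 against 249.5 CPM. Among these and Dnah12, only Spag17 was not used to select the ependymal-like nuclei. The choroid level of these 4 was below that in all other nuclei, which was 7.95 CPM for Dnah12, 3.77 for Tmem212, 6.13 for Spag17 and 0.916 for Ccdc153.

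The regulators of the ciliary program differed as well. Foxj1, a transcription factor of motile cilia, had 43.7 CPM ± 14.8 in choroid nuclei and 117 CPM ± 32.9 in ependymal-like nuclei. Gmnc, which starts the multiciliated program, had the reverse order, with 910.2 CPM ± 109 in choroid nuclei and 62.6 CPM ± 25.2 in ependymal-like nuclei. Differences between these classes carry no test, because both were chosen on their transcripts.

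**Figure D3:**
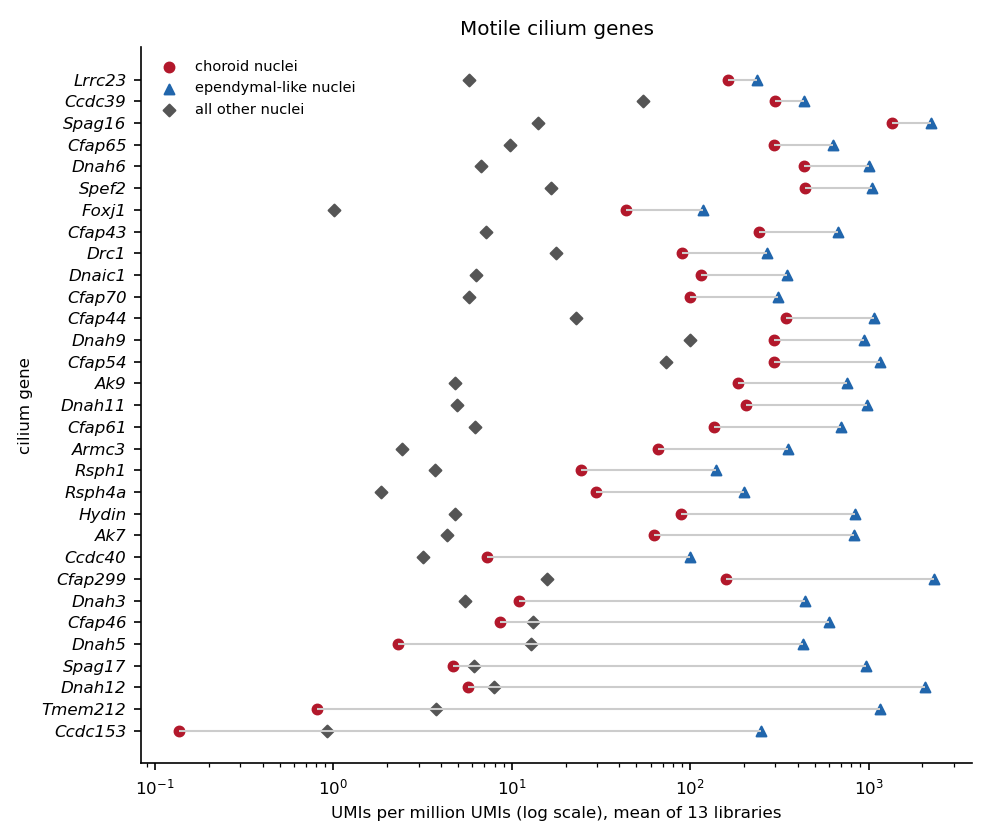
Mean level over 13 libraries (CPM, log axis) of 31 motile cilium genes in choroid nuclei (red circles), ependymal-like nuclei (blue triangles) and all other nuclei (grey diamonds), ordered by the ratio of choroid to ependymal-like level. Cfap46, Dnah5, Spag17, Dnah12, Tmem212 and Ccdc153 at the bottom have red circles to the left of the diamonds. Spag16 and Dnah6 near the top have them far to the right.

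Between Ch25h genotypes 2 transcripts differed in choroid nuclei, Arl3 and Cfap43, both from genes of cilia on chromosome 19. Counts were summed per library and compared with edgeR's quasi-likelihood test over 11938 genes, with the 11 genes of the selection rule left out. Averaged over both tau states Arl3 rose and Cfap43 fell in Ch25h-/- mice, and no other gene reached a Benjamini-Hochberg adjusted p under 0.05 (2 of 11938, 0.0168%). At an unadjusted p under 0.05 there were 408 genes. DESeq2 called 2 genes as well, 1 higher and 1 lower.

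Arl3 encodes a small GTPase that releases lipid-modified proteins inside cilia. Its level was 86.2, 94.9, 97.3 and 101 CPM in Ch25h+/+ Tau+ and 82.2, 146 and 75.3 CPM in Ch25h+/+ Tau-. It was 247, 196 and 261 CPM in Ch25h-/- Tau+ and 217, 264 and 280.5 CPM in Ch25h-/- Tau-. Every Ch25h-/- library lay above every Ch25h+/+ library. The mean was 244 CPM ± 32 (SD, n = 6) against 97.5 CPM ± 23.1 (n = 7), a log2 fold change of 1.32 (SE 0.14) with an edgeR adjusted p of 0.000287. The effect was 1.34 (SE 0.19) in Tau+ mice (edgeR adjusted p = 0.0124) and 1.30 (SE 0.21) in Tau- mice (edgeR adjusted p = 0.0845), and their difference, the interaction, was 0.04 (SE 0.28). The share of choroid nuclei with an Arl3 UMI was 25.3% to 39.2% per library in Ch25h+/+ and 61.4% to 73.0% in Ch25h-/- mice, not thinned to a common depth.

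Cfap43 encodes a protein of the axoneme of motile cilia and sperm tails. It had 288, 401, 386 and 292 CPM in Ch25h+/+ Tau+ and 325, 242 and 373 CPM in Ch25h+/+ Tau-. It had 147, 132 and 123 CPM in Ch25h-/- Tau+ and 132, 132 and 196 CPM in Ch25h-/- Tau-. Here every Ch25h-/- library lay below every Ch25h+/+ library. The mean was 144 CPM ± 26.8 (SD, n = 6) against 329 CPM ± 59.3 (n = 7), a log2 fold change of -1.16 (SE 0.14) with an edgeR adjusted p of 0.000751. It was -1.31 (SE 0.19) in Tau+ mice (edgeR adjusted p = 0.0124) and -1.02 (SE 0.20) in Tau- mice (edgeR adjusted p = 0.484), with an interaction of -0.29 (SE 0.27). The share of nuclei with a Cfap43 UMI was 53.7% to 78.3% per library in Ch25h+/+ and 38.9% to 47.5% in Ch25h-/- mice.

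Over the 2 tau states both genes were called whichever 1 library was left out, but within Tau+ mice they were not. There, leaving out Ch25h+/+ Tau+ replicate 2 or 3 or Ch25h-/- Tau+ replicate 1 or 3 left 0 genes called, and leaving out Ch25h+/+ Tau+ replicate 1 or Ch25h-/- Tau+ replicate 2 left 1. Over the fits without 1 library the log2 fold change in Tau+ mice was 1.24 to 1.45 for Arl3 and -1.39 to -1.22 for Cfap43. None of the other cilium genes tested was called. The cilium genes with the most UMIs had log2 fold changes of -0.03 (Spag16), 0.04 (Dnah6), 0.05 (Spef2) and 0.03 (Cfap44). The median over the 26 tested was 0.04, against -0.0014 over all genes. It was -0.12 in Tau+ mice, with 8 of 26 positive, and 0.15 in Tau- mice, with 21 of 26 positive, and the interaction had a median of -0.30, with 3 of 26 positive.

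**Figure D4:**
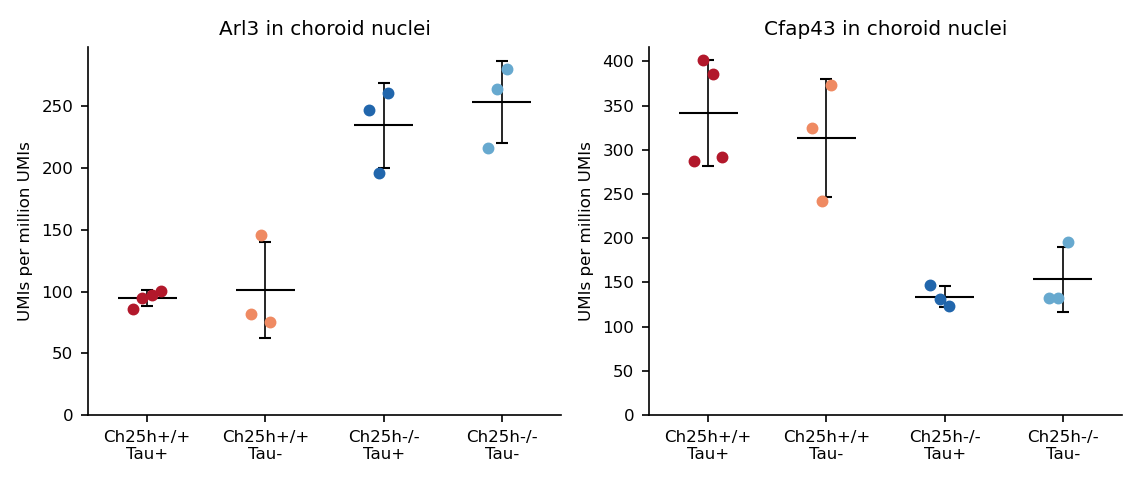
Arl3 (left) and Cfap43 (right) in choroid nuclei, in CPM, 1 point per library (n = 4, 3, 3 and 3), with the group mean and SD as bars. The 6 Ch25h-/- points lie above the 7 Ch25h+/+ points for Arl3 and below them for Cfap43.

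Both genes lie on the chromosome that carries Ch25h. On build GRCm38 (GENCODE M21) Ch25h is at chr19:34473778-34475164, Arl3 at chr19:46531096-46573198 and Cfap43 at chr19:47736857-47919287, all on the reverse strand, with 1164 kb between the latter 2. They lie 12.1 Mb and 13.4 Mb from Ch25h. Within 15 Mb of Ch25h 166 genes were tested, of which 5 had an unadjusted p under 0.05 (3.01%, against 3.42% of all genes tested). Both called genes lay in this window, 2 of its 166 genes against 2 of all 11938. The window was not among the planned comparisons, and one ending short of 12.1 Mb would hold neither gene. This count is therefore not given as support. The Ch25h genotype and that of linked sequence on chromosome 19 cannot be told apart in this design. As annotated, Cfap43 overlaps Gsto1, Gsto2 and Itprip, which had 16, 26 and 13 UMIs in all 13 libraries, against 3016 for Cfap43.

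The sequences before a start site of each gene are shown because these are the genes whose level differed with genotype. Each is the 250 bases upstream of the RefSeq start on build GRCm38.p6, read 5' to 3' on the reverse strand, chr19:46573183-46573432 for Arl3 and chr19:47837362-47837611 for Cfap43. The RefSeq start lies 16 bases inside the gene as GENCODE M21 annotates it for Arl3, and 81.9 kb inside it for Cfap43, so the Cfap43 window is not upstream of the coordinates given above. Capitals mark GTTNCC or its reverse complement GGNAAC, an arm of the X-box motif that RFX transcription factors bind.
Arl3: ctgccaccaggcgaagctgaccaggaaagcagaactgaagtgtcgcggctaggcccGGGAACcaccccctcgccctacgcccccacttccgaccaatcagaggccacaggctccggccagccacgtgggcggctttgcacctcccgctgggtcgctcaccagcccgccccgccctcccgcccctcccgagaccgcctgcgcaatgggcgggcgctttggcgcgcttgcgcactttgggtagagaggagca
Cfap43: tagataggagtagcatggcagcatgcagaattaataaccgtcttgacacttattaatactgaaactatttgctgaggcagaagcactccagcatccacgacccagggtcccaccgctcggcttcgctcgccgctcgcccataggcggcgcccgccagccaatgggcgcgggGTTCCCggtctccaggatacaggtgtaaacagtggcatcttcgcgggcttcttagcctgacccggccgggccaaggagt
Each window held 1 match, searched on both strands, and 39.4% of the 32851 promoter windows of this length held at least 1. The windows were 70.0% and 58.4% G and C, against a median of 52.4%. The Arl3 window also contains the start of Sfxn2, a mitochondrial carrier gene on the forward strand at chr19:46573365-46598066, whose log2 fold change was 0.48 (SE 0.19, edgeR adjusted p = 1.0).

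Both genes were also read in other nuclei of the same libraries, a comparison added after seeing the data. In 14122 astrocyte-like nuclei Arl3 had 90.3 CPM ± 4.74 in Ch25h-/- and 68.9 CPM ± 10.3 in Ch25h+/+ mice. Its log2 fold change was 0.41 (SE 0.09, edgeR unadjusted p = 0.000461, edgeR adjusted p = 1.0). EdgeR called 0 of 15393 genes there (0%, with 345 at an unadjusted p under 0.05, and DESeq2 was not run on them). Within each library the log2 ratio of the choroid to the astrocyte-like level of Arl3 was 0.15 to 1.12 in Ch25h+/+ and 1.16 to 1.55 in Ch25h-/- mice. For Cfap43 it was 4.47 to 5.83 in Ch25h+/+ and 3.7 to 5.09 in Ch25h-/- mice, ranges that overlap. The ratios were compared between genotypes by exact permutation within tau state (difference 0.92, p = 0.00143, for Arl3 and -0.94, p = 0.00714, for Cfap43). Both genes were chosen for their difference in choroid nuclei, which enters the ratio, so these p-values are not independent of that choice and support no difference between classes. Cfap43 had a mean of 7.13 CPM in Ch25h-/- and 8.7 CPM in Ch25h+/+ astrocyte-like nuclei. Over all nuclei outside the class Arl3 was 57.1 to 66.3 CPM in Ch25h+/+ and 79.5 to 92.7 CPM in Ch25h-/- libraries, which did not overlap. Cfap43 there had a mean of 8.25 CPM (5.61 to 10.3) in Ch25h+/+ and 5.96 CPM (5.01 to 6.88) in Ch25h-/- libraries, ranges that overlap. In ependymal-like nuclei Arl3 had 160 CPM ± 66.1 (68.3 to 244) in Ch25h-/- and 81.2 CPM ± 32.6 (24.3 to 136) in Ch25h+/+ mice, ranges that overlap. Cfap43 had 685 CPM ± 165 in Ch25h-/- and 659 CPM ± 212 in Ch25h+/+ ependymal-like nuclei. The ependymal-like values rest on 15 to 82 nuclei per library, with no minimum set, and were not tested.

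No gene of the secreted, transport or junction lists was called for Ch25h loss. Of 16 secreted genes tested 15 had a positive log2 fold change, with a median of 0.21, where 49.7% of all genes were positive. Within Tau+ mice 12 of the 16 were positive, with a median of 0.13 (51.7% of all genes), and within Tau- mice 11, with a median of 0.11 (49.6% of all genes). The choroid marker list, which shares members with these lists, had 17 of 18 tested genes positive over both tau states, with a median of 0.13. Over both tau states the medians were 0.11 for 28 ion and water transport genes and 0.10 for 30 nutrient, hormone and drug transport genes. For 19 junction genes the median was 0.05. Positive were 18 of 28, 23 of 30 and 12 of 19. In Tau+ mice these 3 medians were 0.05 (16 of 28 positive), -0.01 (15 of 30) and -0.02 (9 of 19). In Tau- mice they were 0.14 (18 of 28), 0.21 (23 of 30) and 0.12 (16 of 19). The interaction was positive for 10 of 28, 6 of 30 and 4 of 19, where 50.3% of all genes were positive. Sostdc1, a secreted inhibitor of bone morphogenetic proteins, had 150.2 to 305 CPM in Ch25h-/- and 111 to 227 CPM in Ch25h+/+ libraries, ranges that overlap, and a log2 fold change of 0.56 (SE 0.15, edgeR adjusted p = 1.0). The growth factor Igf2 had 24.6 to 87.2 CPM against 22.7 to 32.5 CPM and a log2 fold change of 0.83 (SE 0.24, edgeR adjusted p = 1.0), with the highest value in Ch25h-/- Tau+ replicate 2. Kl had 0.24 (SE 0.09), Bmp6 0.30 (SE 0.12) and Ttr 0.39 (SE 0.25), none of them called.

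Markers of other cells were read in the same comparison. All 7 excitatory neuron markers tested had a negative log2 fold change, with a median of -0.15, and their 10 listed members summed to 699 to 1466 CPM in Ch25h+/+ and 402 to 2108 CPM in Ch25h-/- libraries. The 4 oligodendrocyte markers tested had a median of -0.48, and the 8 listed summed to 154 to 262 CPM and 94.3 to 216 CPM. The excitatory list differed in sign between the tau states. For Ch25h loss 5 of its 7 tested members were positive in Tau+ mice, with a median of 0.53, and 0 of 7 in Tau- mice, with a median of -0.78. Its interaction had a median of 1.33, with 6 of 7 positive. The 8 astrocyte markers tested had medians of 0.58 in Tau+ mice, -0.31 in Tau- mice and 0.75 for the interaction. The 6 ependymal markers tested, a list that shares members with the cilium genes, had medians of -0.21 in Tau+ mice (2 of 6 positive), 0.36 in Tau- mice (5 of 6) and -0.32 for the interaction (1 of 6). No member of these lists was called, and their part in the results above was not tested.

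**Figure D5:**
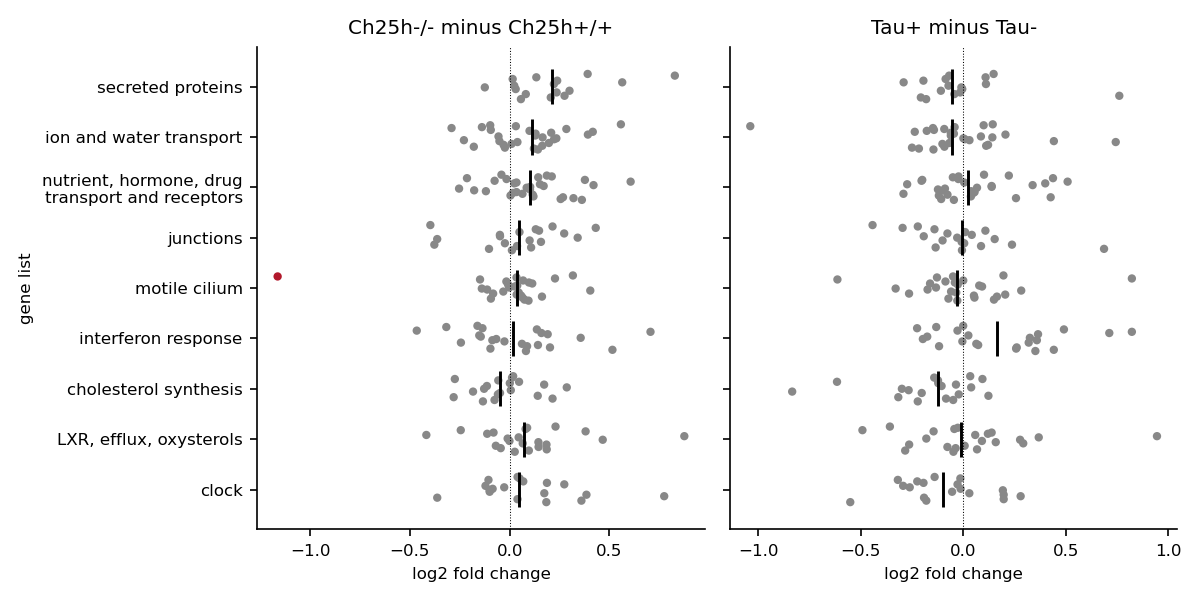
Log2 fold changes of the tested members of 9 gene lists for Ch25h loss (left) and tau (right), 1 point per gene, with a black line at the list median. Cfap43, in red among the cilium genes on the left, is the single member with an adjusted p under 0.05.

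Averaged over the Ch25h genotypes tau had no called gene in choroid nuclei. EdgeR called 0 of 11938 genes (0%), 436 genes had an unadjusted p under 0.05, and 1 was called by DESeq2. That gene was Gm43049, a long intergenic RNA at chr3:140692038-140760704. It had 6.45, 9.41, 14.1 and 10.6 CPM in Ch25h+/+ Tau+, 8.03, 7.12 and 17.2 CPM in Ch25h-/- Tau+ and 0 UMIs in all 6 Tau- libraries. It was counted in every Tau+ library and in no Tau- library. Its 71 UMIs in Tau+ libraries make it at least 14.6-fold higher than a floor of 3 UMIs over the Tau- group. With no UMI in Tau- libraries it could pass the filter on low counts only through Tau+ libraries, so its p is not given as support. The tau state and the genotype of sequence linked to the tau allele cannot be told apart in this design. Of the other genes listed with the tau genotype, the prion protein gene Prnp had 40.3 to 78.8 CPM in Tau+ and 29.8 to 39.8 CPM in Tau- libraries. Its log2 fold change was 0.49 (SE 0.17, edgeR adjusted p = 1.0). The tau gene Mapt had 38.7 to 131 CPM and 15.7 to 83.8 CPM, which overlap, and a log2 fold change of 0.46 (SE 0.32, edgeR adjusted p = 1.0). The mean level of Mapt was 59.3 CPM, and 27.8 CPM without nuclei of high doublet score. Unc5c, a netrin receptor, had -0.32 (SE 0.26).

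With Gm43049, the 3 genes of smallest p for tau were Clec18a, a lectin, and Ghr, the growth hormone receptor, neither of which passed. Clec18a had 27.8 to 44.6 CPM in the 7 Tau+ and 17 to 25.7 CPM in the 6 Tau- libraries. Its log2 fold change was 0.79 (SE 0.18, edgeR adjusted p = 1.0). Ghr had 139.6 to 207 CPM and 90.7 to 152 CPM, which overlap, and a log2 fold change of 0.47 (SE 0.11, edgeR adjusted p = 1.0). No secreted, transport or junction gene was called for tau, and the medians of those lists lay between -0.06 and 0.02, against 0.0055 over all genes. The log2 fold change was 0.15 (SE 0.25) for Ttr, -0.09 (SE 0.09) for Enpp2, -0.10 (SE 0.07) for Trpm3 and -0.29 (SE 0.25) for Prlr.

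Ch25h itself was barely detected in this epithelium. It had 1 UMI among 7276808 in the Ch25h+/+ libraries and 0 among 4163496 in the Ch25h-/- libraries, which allows up to 0.721 CPM, so its loss could not be checked in these nuclei. Of the STING pathway, the sensor Cgas had 14 UMIs and Tmem173, the gene of STING, 13 UMIs in all 13 libraries. The kinase Tbk1 had 72.2 CPM ± 7.52 and the transcription factor Irf3 77.7 CPM ± 10.4. Of 61 interferon response genes listed 22 could be tested, and edgeR called 0 of them for tau or for Ch25h loss. For tau 15 of the 22 had a positive log2 fold change, with a median of 0.17, and 1 had an unadjusted p under 0.05. Over all genes 51.2% were positive and 436 of 11938 had such a p. The 1 interferon gene was Irf9, a subunit of the interferon-activated transcription factor, singled out after its values were seen, at 0.71 (SE 0.25, edgeR adjusted p = 1.0). Ifi27, the member with the most UMIs, had 197 CPM ± 28.4 and 0.00033 (SE 0.10). For Ch25h loss 11 of the 22 were positive (49.7% of all genes), with a median of 0.02. Of the 7 MHC class I genes tested for tau 4 were positive, with a median of 0.24 and a range of -0.54 to 1.09. Tapbp, which helps load peptides onto these molecules, had the largest log2 fold change of the 7, at 1.09 (SE 0.27, edgeR adjusted p = 1.0). Its level was 17.3 to 32 CPM in Tau+ and 6.34 to 16.9 CPM in Tau- libraries.

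Sterol genes had no called change in either comparison. The medians over 19 cholesterol synthesis genes were -0.12 for tau and -0.05 for Ch25h loss. Their regulator Srebf2 had -0.05 (SE 0.15) for tau and -0.08 (SE 0.15) for Ch25h loss. Over 22 genes of LXR targets, sterol efflux and oxysterol handling the medians were -0.01 and 0.07. Apoe, the main lipid carrier of the brain, had 322 CPM ± 128, with 0.28 (SE 0.30) for tau and 0.47 (SE 0.29) for Ch25h loss. The efflux transporter Abca1 had 110.2 CPM ± 21, with 0.12 (SE 0.15) and -0.11 (SE 0.15). Of 18 clock genes none was called, and Rora, a nuclear receptor of the clock, had 1579.8 CPM ± 384 and 0.36 (SE 0.14) for Ch25h loss (edgeR adjusted p = 1.0). App, the amyloid precursor gene, had 596 CPM ± 68.7, with -0.08 (SE 0.10) and 0.01 (SE 0.10).

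Within single strata edgeR called genes only for Ch25h loss in Tau+ mice, the 2 described above (0.0168% of genes, 350 at an unadjusted p under 0.05). The tau effect had 0 calls in Ch25h+/+ mice (0%, 341 at an unadjusted p under 0.05, 0 by DESeq2) and 0 in Ch25h-/- mice (0%, 541 at an unadjusted p under 0.05, 2 by DESeq2). The Ch25h effect in Tau- mice had 0 calls (0%, 582 at an unadjusted p under 0.05, 1 by DESeq2), and so had the interaction (0%, 549 at an unadjusted p under 0.05, 0 by DESeq2). Excitatory neuron markers differed along the same comparisons. For tau their median was -0.62 in Ch25h+/+ mice (0 of 7 positive) and 0.74 in Ch25h-/- mice (5 of 7), against 0.06 over both genotypes (5 of 7). The 10 listed members summed to 699 to 1229 CPM in Ch25h+/+ Tau+, 1069 to 1466 CPM in Ch25h+/+ Tau-, 569 to 2108 CPM in Ch25h-/- Tau+ and 402 to 888 CPM in Ch25h-/- Tau- libraries. None was called, and their part in the values below was not tested. The DESeq2 call in Tau- mice was Arl3 (log2 fold change 1.30, DESeq2 adjusted p = 0.00204). The genes with the smallest p in these comparisons did not pass in edgeR. Inpp5a, an inositol phosphatase, had a tau effect of -0.76 (SE 0.17) in Ch25h+/+ mice (edgeR adjusted p = 1.0), and Cacng3, a neuronal receptor subunit, -1.51 (SE 0.35). In Ch25h-/- mice the long RNA Gm29683 had -1.59 (SE 0.33) and Mecom -0.66 (SE 0.15), both with an edgeR adjusted p of 0.979. Gm29683 was 1 of the 2 genes called there by DESeq2 (log2 fold change -1.63, DESeq2 adjusted p = 0.0141). Mecom was 502, 434 and 419 CPM in Ch25h-/- Tau+ and 589.9, 817 and 739 CPM in Ch25h-/- Tau- libraries. It was 409 to 571 CPM in the Ch25h+/+ libraries. With 3 libraries against 3, even full separation has an exact permutation p of 0.1, so it is no support. The smallest p of the interaction belonged to 4933413L06Rik at 3.05 (SE 0.63), Cacng3 at 2.51 (SE 0.61) and Zbtb6 at -2.55 (SE 0.63), each with an edgeR adjusted p of 0.984 and with 150, 187 and 139 UMIs in all.

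The depth behind these values was uneven. The summed choroid UMIs ran from 318193 to 1418682 per library, and the library's median per nucleus from 3317 to 5190. That median was 797 UMIs higher in Tau+ than in Tau- mice (two-sided exact permutation p = 0.0286, adjusted over 6 effects 0.171) and 633 UMIs higher in Ch25h-/- than in Ch25h+/+ mice (exact permutation p = 0.0686, adjusted 0.171). The part of depth in the gene results was not tested. Libraries 3 and 4 of each group, by accession order, differed from libraries 1 and 2 in 288 of the 11938 genes, and with that split as a term in the fit 2 genes were again called for Ch25h loss. No choroid barcode was shared between any of the 120 pairs of libraries, and no pair of libraries of a group agreed within counting noise (chi-square per degree of freedom 1.95 to 6.6 over 15 pairs).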

How the data were processed

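Raw gene by barcode UMI counts were deposited by the authors for each library, with Cell Ranger 3.1.0 and the build mm10 named per the submitters' processing notes, while the file headers name version 4 of the format's software. The deposited matrices also hold barcodes without nuclei. Nuclei with at least 500 UMIs, 300 genes and at most 5% mitochondrial UMIs were kept. The choroid rule, its members and all gene lists were chosen with earlier results of these data known. Counts of choroid nuclei were summed per library and tested with edgeR 4.0.16 (R 4.3.3, TMM, filterByExpr, robust quasi-likelihood, 1 mean per group), with p adjusted over all genes tested. DESeq2 1.42.0 was an alternative. The fit was checked on simulated counts. Shares and depths were compared by exact permutation of libraries, with adjustment over 6 effects. Correlations used 100000 permutations, or all arrangements with 8 libraries. Doublet scores (Scrublet in scanpy 1.11.5) marked the top 0.8% per 1000 nuclei of each library, and marked nuclei were kept. Genes were named if listed for choroid function with a mean of 5 or more UMIs per library, if called, if among the 3 smallest p of a comparison without calls, or if among the 4 members of a list with the most UMIs. Others were chosen after their values were seen, among them the neighbours of Arl3 and Cfap43, the region and cilium genes and the markers of other cells. Counting intervals and floors cover counting error only. Promoter sequences are from RefSeq. Some listed genes are not reported here.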

Additional observations from a re-analysis of the deposited data

Results flagged for a closer look

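Of 73 groups of 4 libraries tested for a library far from the others, 5 had one, where chance marks about 1 in 20. The levels of 60 genes could be tested in Ch25h+/+ Tau+ alone, the single group with 4 libraries of enough choroid nuclei, so each gene below is from that group by construction. Prlr was 2030 CPM in replicate 4 against 952 to 1033 CPM in the other libraries of the group. Ttr was 7584 CPM in replicate 4, against 9879 to 10165 CPM. Tapbp was 17.3 CPM in replicate 4, against 22 to 22.6 CPM. Htr2c, which was used to choose the nuclei, was 13874 CPM in replicate 2, against 11594 to 11801 CPM. Ifi27 was 247 CPM in replicate 1, against 173 to 182 CPM. Replicate 4 also held 15 of the 53 nuclei with only 3 or 4 marker UMIs.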

How the results depend on the processing

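The count of genes called for Ch25h loss over both tau states was 2 under all 21 alternatives. Among these, minimums of 10 and of 50 choroid nuclei per library kept the same 13 libraries as the main fit. Those fits repeat the main fit in every comparison and are no check on it. For tau over both genotypes it was 1 with DESeq2, 1 with a filter of 10 UMIs and 1 with the library split as a term, and 0 whichever 1 library was left out. The gene was Gm43049. It did not pass the filter on low counts, and so was not tested, in 6 of the 21 alternatives: without any 1 of the 4 Ch25h+/+ Tau+ libraries, without nuclei of high doublet score and with 5 or more marker UMIs. The count of 0 there says nothing about this gene. For tau in Ch25h-/- mice it was 2 with DESeq2 and 0 to 4 without 1 library, 4 when Ch25h-/- Tau+ replicate 1 was left out and 1 when Ch25h-/- Tau- replicate 1 was. For Ch25h loss in Tau- mice it was 1 with DESeq2, 1 with the 10 UMI filter and 0 to 1 without 1 library, the call coming without Ch25h+/+ Tau- replicate 2. For Ch25h loss in Tau+ mice it was 0 to 2 without 1 library. The interaction and the tau effect in Ch25h+/+ mice had 0 calls throughout. Without 1 library the share effect of Ch25h in Tau- mice ran from -0.605 to 0.254 points, reversed to 0.147 when Ch25h+/+ Tau- replicate 2 was left out, and to 0.254 and 0.0276 when replicate 2 or 3 of Ch25h-/- Tau- was. The tau effect on the share in Ch25h-/- mice ran from -0.665 to 0.181 points, reversed to 0.0400 when Ch25h-/- Tau+ replicate 4 was left out and to 0.181 when Ch25h-/- Tau- replicate 1 was. The correlation of near-empty Ttr with the choroid share was 0.388 in the 13 libraries with enough choroid nuclei, an alternative chosen after seeing the data, and 0.647 to 0.839 without 1 library. Without nuclei of high doublet score, 6 mean levels moved by more than 1 SD, among them Mapt, which was 27.8 CPM, and Tjp1, which was 90.9 CPM. The cause of these changes was not tested. No paired analysis was possible because the labels give the groups no shared replicate numbers, and the numbers used here follow accession order.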
